A study of Mus musculus with 3 samples.

Results

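Transcripts of 10 genes that act at the nuclear end of Wnt signalling were followed in mouse epiblast stem cells (EpiSCs): the DNA-binding TCF/LEF factors Lef1, Tcf7, Tcf7l1 and Tcf7l2, the Groucho-type corepressors Tle1, Tle3 and Tle4, and the beta-catenin coactivators Bcl9, Bcl9l and Pygo2. The genes were picked by name and function, and their Entrez Gene identifiers were looked up in the tables. All 10 were found, of 17209 genes listed in all. EpiSCs are pluripotent and correspond to the epiblast of the implanted embryo. The cells were of strain 129 at passage 1 and had been grown on gelatin in serum with 2 inhibitors, IWR1 and Y27632 (Y27). IWR1 blocks tankyrases, so that Axin accumulates and beta-catenin is degraded. Y27632 lowers the contraction of actin and myosin. The NT library was made from cells from which both inhibitors had been withdrawn overnight. For the IWR1 library cells received 2 µM IWR1 over 12 h. For the Y27 library they received 0.5 µM Y27632, a dose given here as labelled, over the same 12 h. Each group had 1 library, so no p-value was computed, and every interval below is a 95% interval that covers counting error only. How many cultures went into a library is not stated in the labels.

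In the absence of Wnt, TCF/LEF proteins sit on their DNA sites with TLE corepressors and hold target genes down. When beta-catenin enters the nucleus it binds the TCF/LEF factors and recruits BCL9 proteins, which in turn bind PYGO proteins, and target genes are activated. The factors are not equivalent in this cell type and its relatives: Tcf7l1 is known chiefly as a repressor that limits the Wnt response of pluripotent cells, whereas Lef1 and Tcf7 are known mainly as activators and can themselves be Wnt target genes.

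The promoter sequences of Lef1 and Tcf7l1 are shown because these members differed most between the libraries, and in opposite directions. They come from RefSeq on GRCm38.p6, another build than the mm8 of the deposited tables, and were matched by gene identifier. RefSeq windows of 300 bases, from 250 before to 50 after an annotated start, were found for 9 of the 10 members, 17 windows in all. Bcl9l had no entry. The first sequence is the 250 bases before the first Lef1 start (chr3:131110047-131110296, + strand), which overlaps an exon of the gene model Gm43352 in GENCODE M21. The second is the 250 bases before an internal Lef1 start (chr3:131156044-131156293, + strand), which lies in an intron of Lef1. The third is a stretch of 30 bases before the RefSeq start of Tcf7l1 (chr6:72789056-72789085, - strand), cut to hold its marked letters. It overlaps an exon and an untranslated region of Tcf7l1 in GENCODE M21. Capitals mark the letters CTTTGA or CTTTGT on either strand, the core of the sequence that the HMG box of TCF/LEF proteins binds.
Lef1, first start: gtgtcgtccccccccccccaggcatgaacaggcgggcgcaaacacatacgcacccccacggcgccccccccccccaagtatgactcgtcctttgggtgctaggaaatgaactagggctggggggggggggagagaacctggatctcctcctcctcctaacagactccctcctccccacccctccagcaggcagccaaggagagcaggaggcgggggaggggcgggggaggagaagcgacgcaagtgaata
Lef1, internal start: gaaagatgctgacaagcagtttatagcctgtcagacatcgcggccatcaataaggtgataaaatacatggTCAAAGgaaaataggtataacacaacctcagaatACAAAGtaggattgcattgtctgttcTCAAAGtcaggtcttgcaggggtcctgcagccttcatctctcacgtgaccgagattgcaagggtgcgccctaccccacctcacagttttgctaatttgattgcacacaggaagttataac
Tcf7l1: gccctgtcaaaaCTTTGTcgccgcagcggc

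The longer letters CTTTGAT, which contain CTTTGA, were in 0 of the 17 member windows and in 3.73% of all 32851 windows of the same length. CTTTGA was in 1 member window, the one at the internal Lef1 start, at positions -180 and -120 counted back from that start, and in 16.0% of all windows. CTTTGT was in 3 member windows, at position -146 of the internal Lef1 start, at -28 of Tcf7l1 and at -14 of the second Tcf7l2 window, and in 18.7% of all windows. These matches are a description of the letters in the windows, and 0 matches were marked before the first Lef1 start. Lef1 had further windows, not shown (chr3:131110073-131110372 and chr3:131112541-131112840), which held none of these letters. The deposited table gives 1 value per gene, so the reads of Lef1 could not be assigned to any of its starts.

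The NT, IWR1 and Y27 libraries held 5767550, 5607725 and 5459332 estimated reads. Levels are given as scaled counts (CPM, counts relative to library size), and all 10 members were among the 12955 genes compared, those whose mean reached 1 CPM. The members had between 148 and 998 reads in a library. A log2 difference is that of log2(CPM + 1), a call is a difference of at least 2-fold on that scale, and folds with intervals are ratios of scaled counts. Of 10 EpiSC markers, 0 were at 0 in any library, with a summed level of 3688 CPM in NT, 4003 CPM in IWR1 and 3179 CPM in Y27. The summed level of 8 streak and nascent mesoderm markers was 1975 CPM in NT, 471 CPM in IWR1 and 1987 CPM in Y27. Most of this sum was T, also listed below as a Wnt target gene, at 1688, 364 and 1652 CPM. Of the 7 such markers compared, 5 had intervals below 1 in IWR1 over NT and 0 above. Mixl1 was at 0 in IWR1, with 61 reads in NT. Mesp1 was at 0 there too, but had only 4 reads in NT and was not among the genes compared. Neural, endoderm and fibroblast markers summed to 20.9 to 47.2, 26.0 to 32.6 and 56.3 to 116 CPM. The endoderm factor Sox17 and the fibroblast gene Lum were at 0 in all 3 libraries. Others were not: the fibroblast gene Col1a1 was at 82.3 CPM in NT, 54.7 in IWR1 and 31.0 in Y27. In the same order, the fibroblast gene Pdgfrb was at 13.8, 1.97 and 12.0 CPM and the neural gene Tubb3 at 40.3, 44.8 and 17.9 CPM. The endoderm gene Cer1 was at 0 in NT, 7.55 CPM in IWR1 and 0.557 CPM in Y27. The blood markers Ptprc, Cd3e and Rag1 were at 0 throughout. Lymphoid cells also express Lef1 and Tcf7. In bulk RNA, fewer cells of a type and less RNA per cell cannot be told apart.

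The level of each member per length of transcript (deposited FPKM) set the starting point in NT. Tcf7 was highest at 54.06 FPKM, followed by Tle3 at 33.14, Pygo2 at 31.22, Tle4 at 23.96, Bcl9 at 21.03, Lef1 at 17.93, Tcf7l1 at 16.49, Tle1 at 9.16, Tcf7l2 at 7.46 and Bcl9l at 6.87 FPKM. The counting intervals set Tcf7 apart from Tle3, Pygo2 apart from Tle4, and Tcf7l1 apart from Tle1, while all other neighbours in this order overlapped. In IWR1 the order below Tcf7 (42.43 FPKM) changed: Tcf7l1 stood next at 30.83 FPKM, overlapping Pygo2 below it at 27.61 FPKM, and Lef1 stood near the bottom at 9.27 FPKM, with an interval that overlapped those of Tle1 above it and Tcf7l2 below it. In Y27, Lef1 stood at 26.22 FPKM, within counting error of Bcl9 at 26.38 and Tle4 at 25.02 FPKM. In that library Tcf7 again stood apart at the top, at 49.67 FPKM.

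**Figure D1:**
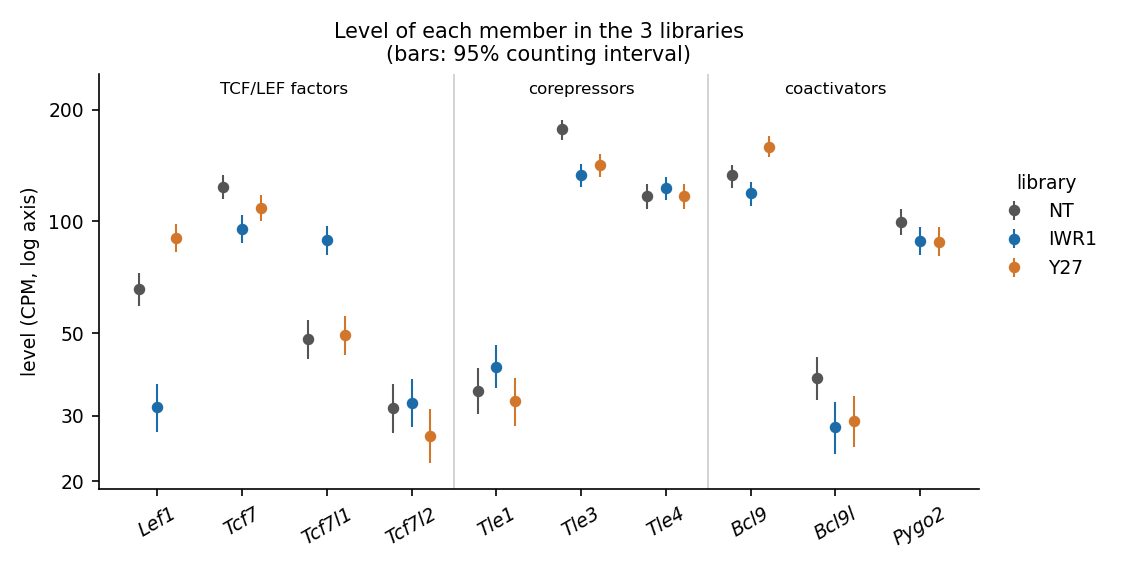
Level of each of the 10 genes in CPM (log axis) in the NT, IWR1 and Y27 libraries, 1 library per group, with bars for the 95% counting interval. Lef1 is at 31.6 CPM in IWR1, below its 65.6 and 90.3 CPM in NT and Y27, and Tcf7l1 is at 89.0 CPM in IWR1, above its 48.3 and 49.5 CPM in NT and Y27.

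The comparison of IWR1 with NT asked how the nuclear components of the pathway stood in cells given the tankyrase inhibitor, against cells without either inhibitor. Because the cells had been grown in both, the difference holds withdrawal in NT as well as treatment. The TCF/LEF factors differed from each other. Lef1 was lower, Tcf7l1 was higher, Tcf7 was slightly lower and Tcf7l2 was the same within counting error.

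Lef1 (Entrez Gene 16842), which encodes an activating HMG-box factor, had 371 reads in NT, 177 in IWR1 and 504 in Y27, or 65.6, 31.6 and 90.3 CPM. The IWR1 library was the lowest and the Y27 library the highest, and the 3 counting intervals did not overlap. Lef1 was 2.08-fold lower in IWR1 than in NT (1.73 to 2.50), a log2 difference of -1.03 that was larger in size than that of 95.9% of all genes compared. It was the only member called in this pair, where 2.25% of all genes were called lower and 2.28% higher. The call sat at the threshold: the log2 difference was -0.88 on the deposited FPKM, -0.95 with a pseudocount of 5 CPM and -0.99 after removal of a length and GC trend. Lef1 is also expressed in nascent mesoderm. In the same pair, 5 of the 7 streak and mesoderm markers compared had intervals below 1, as given above. Their part in the difference was not tested.

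Tcf7l1 (Entrez Gene 21415), which encodes the repressive factor, had 273 reads in NT, 498 in IWR1 and 276 in Y27, or 48.3, 89.0 and 49.5 CPM. The IWR1 library stood above the others, which overlapped. Tcf7l1 was 1.84-fold higher in IWR1 than in NT (1.59 to 2.14) and 1.80-fold higher than in Y27 (1.55 to 2.09). Its log2 difference of 0.87 over NT, larger in size than that of 93.1% of all genes compared, did not reach the 2-fold call, and it was 1.05 after removal of that trend. The log2 differences of all genes followed GC content (Pearson's r of -0.385 across 12825 genes, which share the 2 libraries), and the Tcf7l1 transcripts have a GC content of 60.1% against 49.8% for Lef1. Of the 10 EpiSC markers, 2 were called higher in IWR1 over NT and 0 lower, with a median log2 difference of 0.47 and intervals above 1 for 6 and below 1 for 4. The called genes were Foxd3, 6.66-fold higher (4.86 to 9.33), and Fgf5, 3.29-fold higher (2.67 to 4.08). The part of these markers in the Tcf7l1 difference was not tested.

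Tcf7 (Entrez Gene 21414), which encodes a second activating factor, had 699 reads in NT, 533 in IWR1 and 607 in Y27, or 124, 95.2 and 109 CPM. It was 1.30-fold lower in IWR1 than in NT (1.16 to 1.46) and 1.14-fold lower in Y27 (1.02 to 1.27). On these counts the order of the libraries was not that of Lef1, which was highest in Y27. The place of Y27 below NT is uncertain for Tcf7. Its level intervals overlapped (115 to 133 CPM in NT and 100.3 to 118 CPM in Y27). The Tcf7 difference in Y27 over NT also changed sign after removal of the length and GC trend, as given below. Tcf7l2 (Entrez Gene 21416), the family member best known from intestinal stem cells, had 178, 182 and 148 reads in NT, IWR1 and Y27, at 31.5, 32.5 and 26.5 CPM. Its fold was 1.03 in IWR1 over NT (0.835 to 1.28) and 0.842 in Y27 over NT (0.673 to 1.05), so a difference was not detectable at this depth.

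Setting the factors against each other within a library removes the library scaling, but not the length and GC trend. The fold of Tcf7l1 in IWR1 over NT was 3.82 times that of Lef1 (3.01 to 4.86) and 2.39 times that of Tcf7 (1.98 to 2.89). The fold of Tcf7l2 was 2.14 times that of Lef1 (1.61 to 2.84). The fold of Tcf7 was 1.60 times that of Lef1 (1.29 to 1.99). In all 6 pairs among the 4 factors the interval of this ratio left out 1, with no adjustment for the number of pairs.

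Per length, the make-up of the TCF/LEF pool was different in IWR1 while its sum differed little. The 4 genes summed to 95.94 FPKM in NT, 90.45 in IWR1 and 100.1 in Y27. Tcf7 held the largest share in each library, 56.3% in NT, 46.9% in IWR1 and 49.6% in Y27. Lef1 held 18.7%, 10.2% and 26.2% in the same order, and Tcf7l1 held 17.2%, 34.1% and 17.6%. Tcf7l2 held 7.78%, 8.76% and 6.64%. The FPKM ratio of Lef1 to Tcf7l1 was 1.09 in NT, 0.301 in IWR1 and 1.49 in Y27, and that of Tcf7 to Tcf7l1 was 3.28, 1.38 and 2.82. In counts, the sum of the 4 genes was 0.923-fold in IWR1 over NT (0.857 to 0.993) and 1.02-fold in Y27 over NT (0.952 to 1.10).

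**Figure D2:**
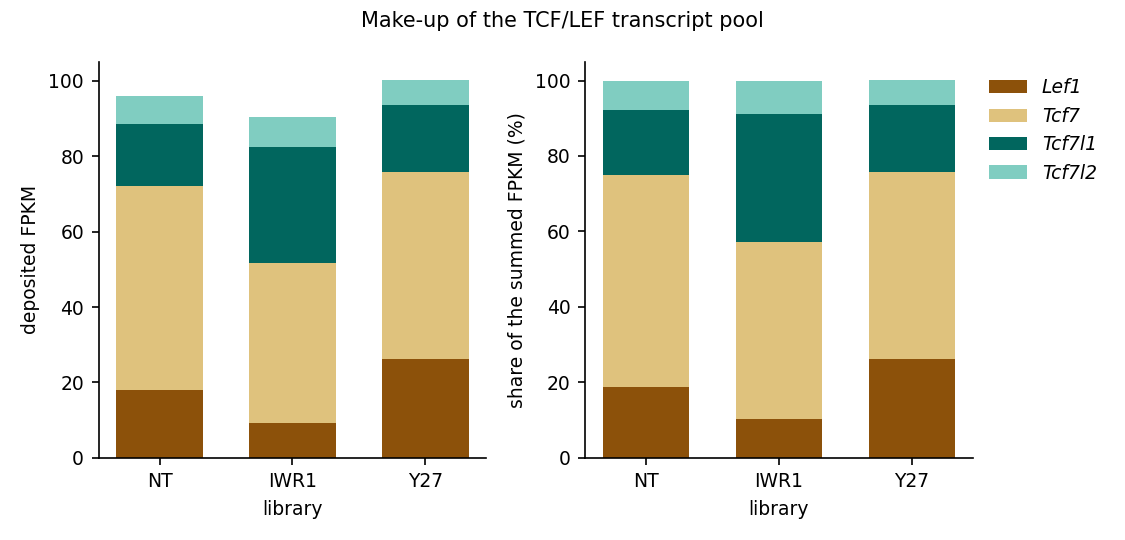
Deposited FPKM of the 4 TCF/LEF genes stacked in each library (left) and the share of each in their sum in percent (right). Between NT and IWR1 the Lef1 part goes from 18.7% to 10.2% and the Tcf7l1 part from 17.2% to 34.1%, while the sum stays between 90.45 and 100.1 FPKM in the 3 libraries.

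Among the corepressors, Tle3 was lower in both treated libraries, while the intervals of Tle1 and Tle4 over NT held 1. Tle3 (Entrez Gene 21887) had 998 reads in NT, 745 in IWR1 and 792 in Y27, or 177, 133 and 142 CPM, with NT above the overlapping treated libraries. It was 1.33-fold lower in IWR1 (1.21 to 1.46) and 1.24-fold lower in Y27 (1.13 to 1.37) than in NT. Tle4 (Entrez Gene 21888) was at 117, 123 and 117 CPM in NT, IWR1 and Y27, and its fold was 1.05 in IWR1 over NT (0.940 to 1.17) and 0.999 in Y27 over NT (0.895 to 1.11). Tle1 (Entrez Gene 21885) was at 35.0, 40.7 and 32.8 CPM, with folds of 1.16 (0.957 to 1.41) and 0.936 (0.761 to 1.15) over NT.

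Reads of Tle1 and Tle4 were partly shared out between the genes, since their counts are fractional: 198.04 and 661.96 reads in NT, 228.1 and 686.9 in IWR1, 183.13 and 652.88 in Y27. Their sum, 860 reads in NT, 915 in IWR1 and 836.01 in Y27, was 1.07-fold in IWR1 over NT (0.978 to 1.18) and 0.985-fold in Y27 over NT (0.894 to 1.08). Against Tle4, the fold of Tle3 in IWR1 over NT was 0.719 times as large (0.622 to 0.832), and in Y27 over NT 0.805 times (0.696 to 0.930). Both ratios were taken without removal of the length and GC trend. The GC content was 55.8% for Tle3 transcripts and 47.5% for those of Tle4, and its part in the ratios was not tested. Per length, Tle3 was at 1.38 times the FPKM of Tle4 in NT and at 0.995 and 1.11 times in IWR1 and Y27. The 3 corepressors summed to 66.26 FPKM in NT, 61.45 in IWR1 and 62.9 in Y27.

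Among the coactivators, Bcl9 and Bcl9l, paralogs that link beta-catenin to PYGO proteins, parted in Y27 on counts without removal of the length and GC trend. Bcl9 (Entrez Gene 77578) had 749 reads in NT, 666 in IWR1 and 888 in Y27, or 133, 119 and 159 CPM. Y27 was the highest library and stood apart from both others. Bcl9 was 1.20-fold higher in Y27 than in NT (1.09 to 1.33), and its fold in IWR1 over NT was 0.898 (0.808 to 0.998). Bcl9l (Entrez Gene 80288) had 214, 156 and 162 reads, at 37.9, 27.9 and 29.0 CPM, with NT the highest and the treated libraries overlapping. The level interval in NT (33.0 to 43.3 CPM) overlapped that in Y27 (24.7 to 33.9 CPM) but not that in IWR1 (23.7 to 32.6 CPM). Bcl9l was 1.36-fold lower in IWR1 (1.10 to 1.68) and 1.30-fold lower in Y27 (1.06 to 1.61) than in NT.

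The fold of Bcl9 in Y27 over NT was 1.57 times that of Bcl9l (1.24 to 1.98). In IWR1 over NT it was 1.22 times (0.962 to 1.55), an interval that holds 1. These ratios too were taken without removal of the length and GC trend. The GC content was 55.4% for the Bcl9 transcript and 61.7% for that of Bcl9l, and its part in the ratios was not tested. Per length, Bcl9 stood at 3.06 times the FPKM of Bcl9l in NT, 3.73 times in IWR1 and 4.80 times in Y27. Pygo2 (Entrez Gene 68911), whose PHD finger binds methylated histone H3, had 564, 497 and 493 reads in NT, IWR1 and Y27, at 99.8, 88.8 and 88.3 CPM. Its folds over NT were 0.890 in IWR1 (0.787 to 1.01) and 0.885 in Y27 (0.783 to 1.00), and both intervals reached 1. Ctnnb1, the gene of beta-catenin itself, was at 868 CPM in NT, 909 CPM in IWR1 and 881 CPM in Y27, 1.05-fold higher in IWR1 than in NT (1.01 to 1.09).

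**Figure D3:**
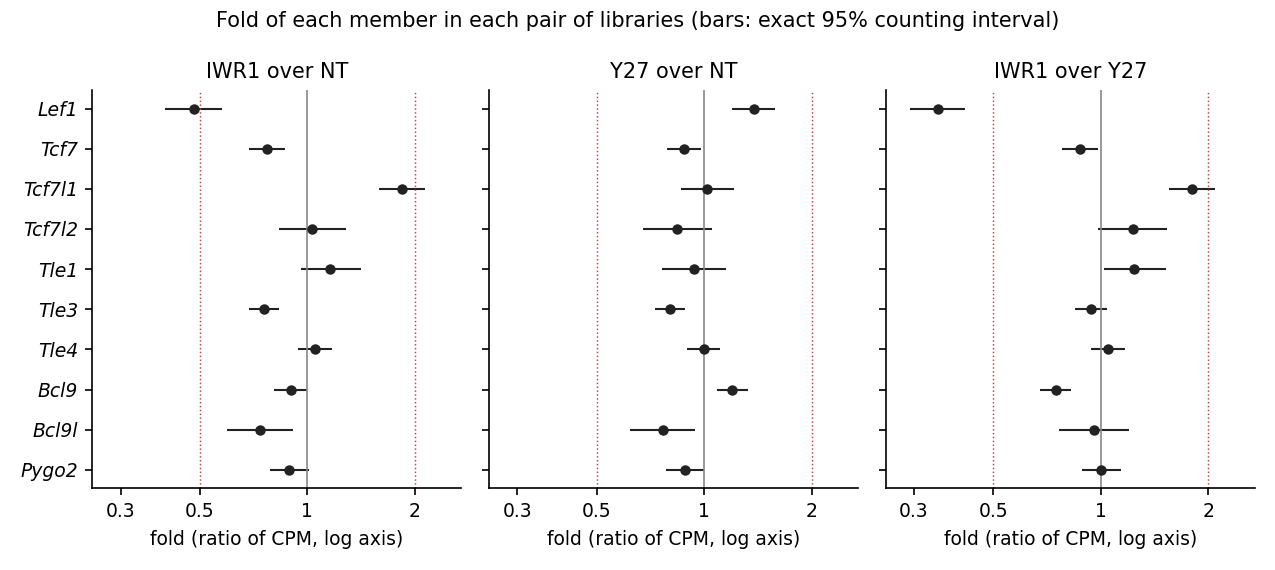
Fold of each member (ratio of CPM, log axis) in IWR1 over NT, Y27 over NT and IWR1 over Y27, with exact 95% counting intervals; dotted lines stand at 2-fold and the solid line at no difference. Lef1 lies at 0.482 in IWR1 over NT and 0.350 in IWR1 over Y27, and Tcf7l1 at 1.84 and 1.80, while the remaining members lie between 0.736 and 1.24 in all 3 panels.

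As a group the 10 members had a median log2 difference of -0.16 in IWR1 over NT, with 4 higher and 6 lower, beside a median of 0.00 over all genes. The counting interval left out 1 for 6 of them, Tcf7l1 above and Lef1, Tcf7, Tle3, Bcl9 and Bcl9l below. Among all genes compared this held for 39.4%, and among the 4895 genes with a mean count in the members' range for 49.5%, so the members' share was near the background. With the same rule 20.3% of all genes lay above and 19.1% below.

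The comparison of Y27 with NT asked how the same genes stood under Y27632 and shares the NT library with the comparison above. No member was called, while 5.58% of all genes were called higher and 1.34% lower. Lef1 was 1.38-fold higher than in NT (1.20 to 1.58), a log2 difference of 0.45, and Bcl9 was higher as given above. Tcf7, Tle3 and Bcl9l were lower with intervals that left out 1, and the other 5 members had intervals that held or reached 1, Tcf7l1 among them at 1.02-fold (0.863 to 1.21). The interval left out 1 for 5 of 10 members, beside 44.8% of all genes (21.9% above 1 and 22.9% below) and 56.8% of those in the members' range of counts. The members' median log2 difference was -0.13, beside -0.02 over all genes.

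Removing the trend with length and GC content changed several of the Y27 values. Log2 differences in Y27 over NT followed GC content with a Pearson's r of -0.513 across 12825 genes. After removal of the length and GC trend, the log2 difference of Tcf7 went from -0.18 to 0.03, that of Tcf7l1 from 0.03 to 0.28, that of Pygo2 from -0.17 to 0.05 and that of Tle3 from -0.31 to -0.16. The fold of Lef1 in Y27 over NT was 1.56 times that of Tcf7 (1.31 to 1.87), 1.34 times that of Tcf7l1 (1.08 to 1.67) and 1.63 times that of Tcf7l2 (1.25 to 2.13). The 3 pairs among Tcf7, Tcf7l1 and Tcf7l2 had intervals that held 1. These ratios were taken on counts without removal of the trend.

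**Figure D4:**
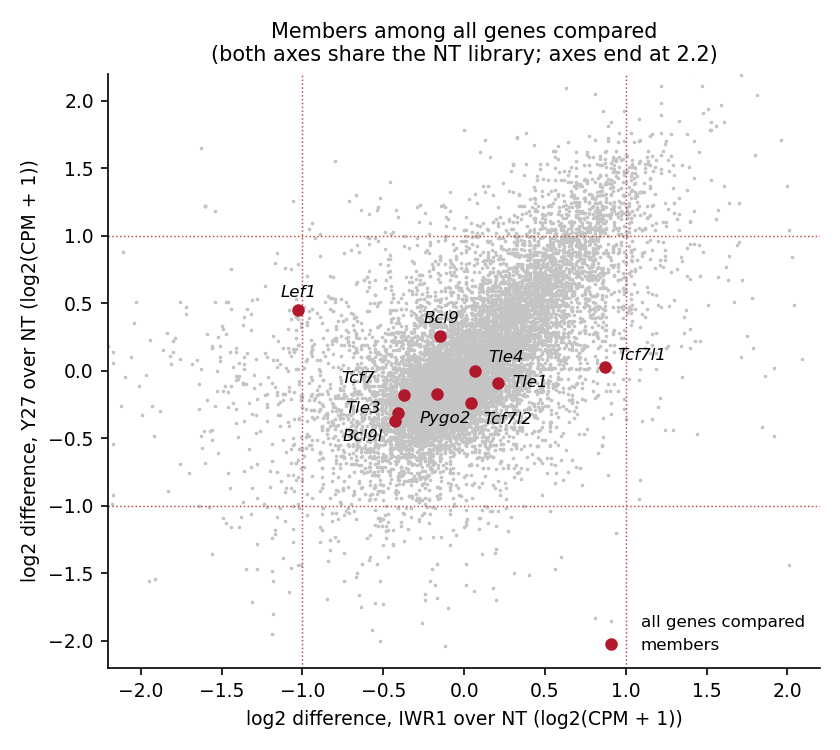
Log2 difference of each gene compared in IWR1 over NT (x axis) and Y27 over NT (y axis), both on the log2(CPM + 1) scale and both against the same NT library, with the 10 members named; 47 genes lie beyond the axis limits of 2.2. Lef1 lies at -1.03 and 0.45 and Tcf7l1 at 0.87 and 0.03, outside the dense part of the cloud that holds the other members.

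The direct comparison of the treated libraries asked how the 2 inhibitors differed and shares a library with each comparison above. Lef1 was 2.86-fold lower in IWR1 than in Y27 (2.40 to 3.41), a log2 difference of -1.49 that was larger in size than that of 98.7% of all genes compared. It was the 1 member called, where 2.9% of all genes were called lower and 1.38% higher. Bcl9 was 1.34-fold lower in IWR1 (1.21 to 1.48), Tcf7 1.14-fold lower (1.02 to 1.29) and Tle1 1.24-fold higher (1.02 to 1.52), the last on counts shared with Tle4. The summed reads of Tle1 and Tle4 had a fold of 1.09 in IWR1 over Y27 (0.992 to 1.20), an interval that holds 1. On the deposited FPKM the fold of Tle1 was 1.04, so a difference of Tle1 in this pair is uncertain. Tle3, Tle4, Bcl9l, Pygo2 and Tcf7l2 had intervals that held 1. The fold of Tcf7l1 was 5.13 times that of Lef1 (4.07 to 6.48). Intervals left out 1 for 5 of 10 members, beside 32.4% of all genes (16.3% above 1 and 16.1% below) and 36.7% of those in the members' range of counts.

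A further 38 genes of nuclear Wnt signalling, listed by function, gave the setting of the members. Of the 36 compared, 0 were at least 2-fold apart in IWR1 over NT, and 1 was at least 2-fold higher and 0 lower in Y27 over NT. Among all genes compared, 2.28% were at least 2-fold higher and 2.25% lower in IWR1 over NT. In Y27 over NT the shares were 5.58% and 1.34%. The median log2 differences of the 36 genes were 0.10 and 0.02. Xiap, a ubiquitin ligase that acts on TLE proteins, was at 39.1 CPM in NT, 67.3 in IWR1 and 89.1 in Y27, 1.72-fold (1.46 to 2.04) and 2.28-fold (1.94 to 2.68) higher than in NT. Tbl1xr1, a subunit of corepressor complexes, was at 32.0, 52.1 and 64.3 CPM, 1.63-fold (1.35 to 1.97) and 2.01-fold (1.68 to 2.42) higher, and just short of the call on the log2(CPM + 1) scale. Cdc73, a subunit of the PAF1 elongation complex that binds beta-catenin, was 1.52-fold (1.31 to 1.78) and 1.55-fold (1.33 to 1.81) higher.

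After removal of the length and GC trend, 0 of these genes were at least 2-fold higher in Y27 over NT. The remaining members of the families studied here were at low levels: Tle2 at 0.907 to 1.53 CPM, Tle6 at 0.357 to 1.06 CPM and Pygo1 at 0.531 to 0.717 CPM over the 3 libraries. Tle5, which encodes a short TLE protein without the WD40 repeats, was at 45.8, 45.7 and 41.0 CPM in NT, IWR1 and Y27. Intervals lay above 1 for 16 and below 1 for 5 of the 36 genes in IWR1 over NT, and for 13 and 8 in Y27 over NT. Among all genes compared the shares were 20.3% above and 19.1% below in IWR1 over NT, and 21.9% and 22.9% in Y27 over NT.

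**Figure D5:**
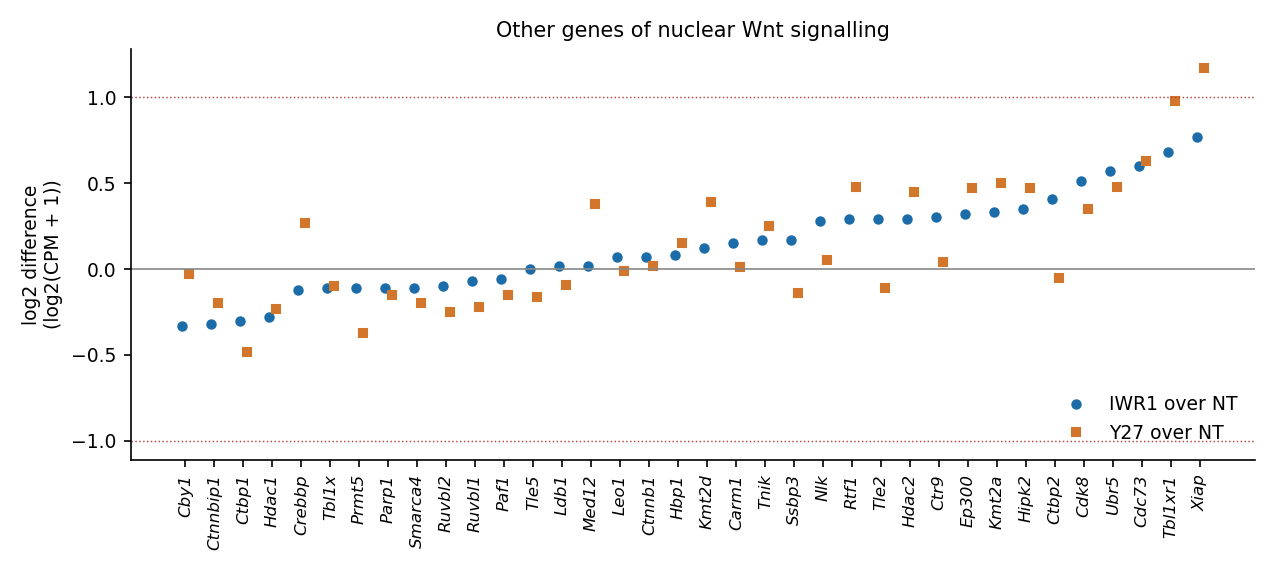
Log2 differences (log2(CPM + 1) scale) of the 36 other nuclear Wnt genes compared, in IWR1 over NT (circles) and Y27 over NT (squares), ordered by the former; dotted lines mark 2-fold. Xiap, at 0.77 and 1.17, is the only gene past a dotted line.

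Wnt target genes gave the context of the IWR1 values. Of 14 listed, 11 passed the level filter and were compared. Of these, 7 were called lower and 0 higher in IWR1 over NT, beside 2.25% and 2.28% of all genes. Their median log2 difference was -1.80. In Y27 over NT 0 were called, beside 1.34% of all genes lower and 5.58% higher, with a median of -0.03. Lgr5, below the filter, went the other way, with 0 reads in NT and 13 in IWR1 (interval of the fold from 3.08 upward). Cdx2, a caudal homeobox gene, was at 48.3 CPM in NT, 2.50 in IWR1 and 68.8 in Y27, so its IWR1 library was lowest and its Y27 library highest, as for Lef1. Sp5, a Wnt-induced transcription factor gene, was at 281, 47.9 and 218 CPM, and T, the brachyury gene, at 1688, 364 and 1652 CPM. Among target genes with at least 30 reads, the largest differences in Y27 over NT were those of Znrf3, Notum and Cdx2. Znrf3, which encodes a ligase that removes Wnt receptors, had a fold of 1.51 (1.22 to 1.88) on partly fractional counts, and Cdx2 one of 1.42 (1.22 to 1.67). Notum, a Wnt-inactivating enzyme gene, had a fold of 1.49 with an interval that held 1 (0.971 to 2.32).

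Of 7 genes known to be repressed by Tcf7l1 in pluripotent cells, 4 passed the level filter, and 0 were called in either comparison with NT. Lef1 was listed as such a gene too, but was left out of these counts because it is a member. It was called lower in IWR1 over NT, as given above. Of all genes compared, 2.28% were called higher and 2.25% lower in IWR1 over NT, and 5.58% and 1.34% in Y27 over NT. With 4 genes, a count of 0 is near these shares and cannot show whether genes repressed by Tcf7l1 differed. Nanog, a pluripotency factor gene, was at 245 CPM in NT, 187 in IWR1 and 209 in Y27. Its fold was 0.763 in IWR1 over NT (0.704 to 0.828) and 0.853 in Y27 over NT (0.789 to 0.923). Klf2, a naive pluripotency gene, was at 6.72, 10.2 and 4.84 CPM, with intervals that held 1 in both comparisons with NT and a fold of 2.10 in IWR1 over Y27 (1.31 to 3.46). Tfcp2l1, another such gene, had a fold of 0.860 in IWR1 over NT (0.615 to 1.20). Foxa2, an endoderm factor gene, had a fold of 0.658 in Y27 over NT (0.451 to 0.951). Esrrb, Nr0b1 and Nr5a2 were below the level filter.

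The 5 genes whose pattern over the 3 libraries was most like that of Lef1 were taken by the distance between the pairs of log2 differences in IWR1 and Y27 over NT, among the 10703 genes whose mean reached 5 CPM. They were Pik3c2b (distance 0.0461), Ptprj (0.0762), Bhlhe22 (0.0841), Cxcl12 (0.0970) and Wnt5a (0.103). Wnt5a, which encodes a Wnt ligand, was at 23.4 CPM in NT, 11.1 in IWR1 and 30.1 in Y27. Cxcl12, which encodes a chemokine, was at 62.3, 31.6 and 82.1 CPM, close to the levels of Lef1 itself. Ptprj, a receptor phosphatase gene, was at 29.5, 13.9 and 38.7 CPM, and Pik3c2b, a lipid kinase gene, at 33.6, 16.5 and 46.9 CPM. With 3 libraries, such likeness describes 2 differences and no more.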

How the data were processed

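Total RNA of 3 EpiSC libraries was sequenced, 1 per group, with groups taken from the labels. Per the file headers, the deposited tables hold expected counts, which are estimates of reads per gene without scaling, and FPKM values, which the authors scaled to transcript length and library size. The submitters' processing notes name Bowtie 0.12.2 and mm8. For the step that estimated counts, no tool is stated. FPKM recomputed from count, length and library sum differed by at most 2% for 94.0% (NT), 93.9% (IWR1) and 93.8% (Y27) of genes above 50 counts. A gene absent from a table was taken as 0. Symbols from RefSeq (GRCm38.p6) matched 99.7% of 17209 identifiers.

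Counts were scaled with TMM factors (edgeR 4.0.16, R 4.3.3), filtered at a mean of 1 CPM and compared on a log2 scale with a pseudocount of 1 CPM and a 2-fold threshold. Counts were rounded for exact conditional binomial intervals of folds, exact Poisson intervals of levels and conditional odds ratios between genes (scipy 1.17.1), all at 95%. Alternatives used other scalings (DESeq2 1.42.0 size factors among them), pseudocounts, filters, thresholds, the deposited FPKM, and removal of a cubic trend of log2 length and GC content (GENCODE M21 transcripts, 99.0% of genes compared). IWR1 over NT data were simulated for 12955 genes with Poisson counting error only, the error that the intervals assume. In them, 100% of 200 genes set 3-fold apart passed 2-fold, 42 unchanged genes passed too, and 95.9% of the intervals held the true fold. The changed genes were drawn only from genes at higher levels. Variation between cultures was not simulated, so the result does not show how the intervals or the call behave in its presence.

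All 10 members were named, as was Ctnnb1. From each of the other 3 gene lists (nuclear Wnt genes, Wnt targets, genes repressed by Tcf7l1) up to 3 genes were named with the largest absolute difference from NT in each treated library, among genes with at least 30 reads in the higher library. Other genes named (the remaining Tle and Pygo genes, Esrrb, Nr0b1, Nr5a2, Lgr5 and single cell type markers) were chosen after their values were seen. The members and lists were chosen with earlier results of these data known.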

Additional observations from a re-analysis of the deposited data

How the results depend on the processing

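Under the 7 other settings, 206 of 210 log2 differences of members stayed within the counting interval of the reported value. The exceptions all came with the trend of length and GC content removed, in Y27 over NT: Tcf7 reversed to 0.03, and Tcf7l1, Tle3 and Pygo2 were at 0.28, -0.16 and 0.05. The count of members at least 2-fold lower in IWR1 over NT was 0 rather than 1 with a pseudocount of 5 CPM, on the deposited FPKM, with the trend removed and at 3-fold. The count of members higher in that pair was 1 rather than 0 with the trend removed and at 1.5-fold. In IWR1 over Y27 it was 1 higher at 1.5-fold and 0 lower at 3-fold.

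Counts over all genes moved as follows, higher before lower. In IWR1 over NT they were 543 and 463 with a pseudocount of 0.1 CPM, 80 and 98 with 5 CPM, 152 and 164 on FPKM, 185 and 183 at a mean of at least 5 CPM, 1404 and 825 at 1.5-fold and 43 and 79 at 3-fold, and 186 higher with the trend removed. In Y27 over NT, 340 and 42 passed with a pseudocount of 5 CPM, 1928 and 717 at 1.5-fold and 80 and 27 at 3-fold. There, 251 were higher with the trend removed, and 320, 93 and 96 lower with a pseudocount of 0.1 CPM, on FPKM and at a mean of at least 5 CPM. In IWR1 over Y27 they were 311 and 595 with a pseudocount of 0.1 CPM, 53 and 146 with 5 CPM, 99 and 230 on FPKM, 91 and 224 at a mean of at least 5 CPM, 656 and 1062 at 1.5-fold and 35 and 107 at 3-fold. The cause was not tested. Of the other nuclear Wnt genes, 2 rather than 1 were at least 2-fold higher in Y27 over NT when scaled by library total or with a pseudocount of 0.1 CPM, and 0 with the trend removed.

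Counts not divided by length gave Lef1 24.4%, 12.7% and 32.8% of the TCF/LEF sum in NT, IWR1 and Y27, Tcf7 46.0%, 38.3% and 39.5%, and Tcf7l2 11.7%, 13.1% and 9.64%. No paired analysis was possible because each group has 1 library, and for the same reason no library could be left out. Ratios between genes within a library do not depend on the scaling.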

Other observations

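The transcript lengths in the deposited tables are averages over annotated isoforms, and for some members they differed between libraries. For Lef1, with 3 annotated transcripts, the length was 3559.5 bases in NT, 3384.2 in IWR1 and 3499.3 in Y27. For Tle1, with 5 transcripts, it was 3719.5, 3873.4 and 3314.4 bases. That of Tcf7l2, with 8 transcripts, was 4098.1, 4063.5 and 4046.6 bases, and that of Pygo2, with 5, was 3112.0, 3191.7 and 3161.2 bases. Tcf7, Bcl9 and Bcl9l have 1 transcript each in the tables and 1 length throughout. Lef1 was 1.93-fold lower in IWR1 than in NT on the FPKM values, which use this length and no TMM scaling, and 2.08-fold lower on counts scaled with TMM. The tables give no count per isoform.

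Paralogs of the general corepressor machinery lay on opposite sides of NT in the IWR1 library, and 1 of the 2 pairs did so in Y27 as well. Ctbp1, a corepressor gene, went from 203 CPM (NT) to 164 CPM (IWR1), a fold of 0.809 (0.741 to 0.883), and its paralog Ctbp2 from 162 to 215 CPM, a fold of 1.33 (1.22 to 1.45). Hdac1 and Hdac2, which encode histone deacetylases of these complexes, had folds of 0.826 (0.778 to 0.877) and 1.23 (1.11 to 1.36). In Y27 over NT the folds of Ctbp1 and Ctbp2 were 0.717 (0.654 to 0.785) and 0.966 (0.880 to 1.06), and those of Hdac1 and Hdac2 were 0.851 (0.802 to 0.903) and 1.37 (1.24 to 1.51). These 4 genes were chosen after their values were seen, and the intervals cover counting error only.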
